A study of Mus musculus with 4 samples.

Results

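Solute carriers are the membrane proteins through which cells and their organelles take up, release and exchange sugars, amino acids, ions, vitamins, nucleotides and metabolites. The genes examined here are the 120 expressed ones of the 200 solute carrier genes that the libraries of mouse germinal vesicle (GV) oocytes list. They were chosen by symbol (Slc, a family number, the letter a and a member number) and by a mean over the 4 libraries of at least 0.5 FPKM, the unit of the deposited values (fragments relative to gene length and library depth). The zinc transporter families Slc30 and Slc39, and Slc22a18 and Slc38a4, were set aside by the choice of genes. The mean level chose the members, so levels are given as a description, and the only contrast tested is that between the oocyte classes. The 27 members of the Slc25 family are described apart from the 93 others, which spread over 36 further families. Of all 16861 genes listed, 11672 passed the same minimum and were tested together.

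The oocytes came from antral follicles of 3-week-old female C57BL/6J mice, and cumulus cells were pipetted off. Under the DNA dye Hoechst they were sorted into NSN oocytes, in which the chromatin is dispersed through the nucleus, and SN oocytes, in which it is condensed in a ring around the nucleolus. After the zona pellucida had been removed with pronase, 15 oocytes went into each Smart-seq2 library of poly(A) RNA, and 2 NSN and 2 SN libraries are analysed here. The comparison asks how the transcripts of the oocyte differ between the 2 chromatin configurations, all other treatment being shared.

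Most Slc25 proteins sit in the inner mitochondrial membrane and carry nucleotides, phosphate, amino acids, carboxylates and cofactors between the cytosol and the matrix. The other families work mainly at the cell surface, in the Golgi and in vesicles. A growing oocyte has carriers of its own for some substrates and receives others, among them amino acids, pyruvate and nucleotides, from the cumulus cells through gap junctions. A fully grown oocyte stores many mRNAs that are translated only later, so a transcript level is no measure of transport.

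FPKM are read pairs relative to gene length and to the library total. The totals were 17069772 to 17998361 read pairs, at which 3 read pairs on a gene of 1 kb give an FPKM of 0.167 to 0.176, a limit that covers counting error only. No member came near it, and the fewest read pairs of any member in any library were 10 (Slc7a7). FPKM say nothing of how much RNA an oocyte held, so a smaller amount of one transcript and a larger amount of all others cannot be told apart. The 11 oocyte marker genes fixed for the purpose (Zp1, Zp2, Zp3, Gdf9, Bmp15 and others) were all present. Their sum was 21891 and 20560 FPKM for NSN replicates 1 and 2, against 14640 and 14005 for SN. Of them 8 were called, all lower in SN. Of 16 granulosa and cumulus cell markers, 11 were listed, while Amh, Amhr2, Foxl2, Fst and Gatm are not among the listed genes. The 11 summed to 9.81 and 13.9 FPKM in NSN and to 14.2 and 14.1 in SN oocytes. Of the 4 that reached the minimum, 0 were called. Of 6 blood and stroma markers only Pecam1 was listed, at 4.49 to 4.96 FPKM. What part the oocyte marker difference, or any difference in granulosa and cumulus cell markers, has in the results below was not tested.

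Differences between SN and NSN oocytes were tested with limma on log2(FPKM + 0.5), a scale on which low FPKM give a smaller fold change than the plain ratio. Calls needed at least a 1.2-fold difference together with a Benjamini-Hochberg adjusted p under 0.05 over the 11672 genes. The replicate libraries are not stated to come from separate animals, so p-values measure only the spread between these libraries. An exact permutation test of 2 libraries against 2 cannot give a two-sided p below 0.333, and every p here rests on the variance that limma pools across genes. On the deposited scale the median gene was higher in SN by a log2 fold change of 0.14, and 0.005 after each library was divided by its median ratio to the mean library (median scaling). Calls are therefore given on both scales. Over all genes tested, 7.93% were called on the deposited scale (695 higher and 231 lower in SN), and 2.2% after median scaling (78 higher, or 0.668%, and 179 lower, or 1.53%).

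On the deposited scale limma called few solute carriers different between the oocyte classes. Of the 120 members, 3 were called (2.5%, against 7.93% of all genes tested), 1 higher in SN (against 5.95%) and 2 lower (against 1.98%). The sugar transporter gene Slc45a3 and the nucleotide sugar transporter family gene Slc35a4 fell in SN oocytes, and the aromatic amino acid transporter gene Slc16a10 rose. After median scaling, Slc45a3 and Slc35a4 passed limma again, Slc16a10 did not (limma adjusted p = 0.074), and no other member did, where 2.2% of all genes were called. Without adjustment, 33 members had p under 0.05 by limma (27.5%, against 31.7% of all genes), 21 of them higher (23.8% of all genes were) and 12 lower in SN (7.86%). When whole read pairs recovered from the FPKM were tested with limma's voom instead, 23 of the 120 members were called (15 higher and 8 lower). That share is close to the 19.7% of all genes called (15.1% higher and 4.58% lower). With median scaling of the read pairs voom called 5 of the 120 higher and 13 lower. Together their share is close to the 14.6% of all genes called (6.38% higher and 8.25% lower). Where each library had to reach 0.5 FPKM, 27 Slc25 genes and 81 others remained. Of these, limma called 1 Slc25 gene and 4 others higher and 2 and 2 lower. Of all genes past that filter, 11.8% were called (9.0% higher and 2.76% lower). Where the mean had to reach 5 FPKM, only 17 Slc25 genes and 28 others remained. Of these, limma called 2 Slc25 genes and 4 others higher and 1 and 2 lower. Of all genes past that filter, 27.1% were called (21.2% higher and 5.92% lower). With the replicate number as a block limma called 0 members higher and 2 Slc25 genes and 1 other lower. Of all genes, 3.62% were called (2.28% higher and 1.34% lower). For 68 of the 120 members the fitted difference was under 1.2-fold. The 120 include 3 genes that passed the minimum only through 1 group, Slc1a1 and Slc22a14 through NSN and Slc47a1 through SN oocytes. That choice favours a difference, so these 3 are no support for one in any count.

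**Figure D1:**
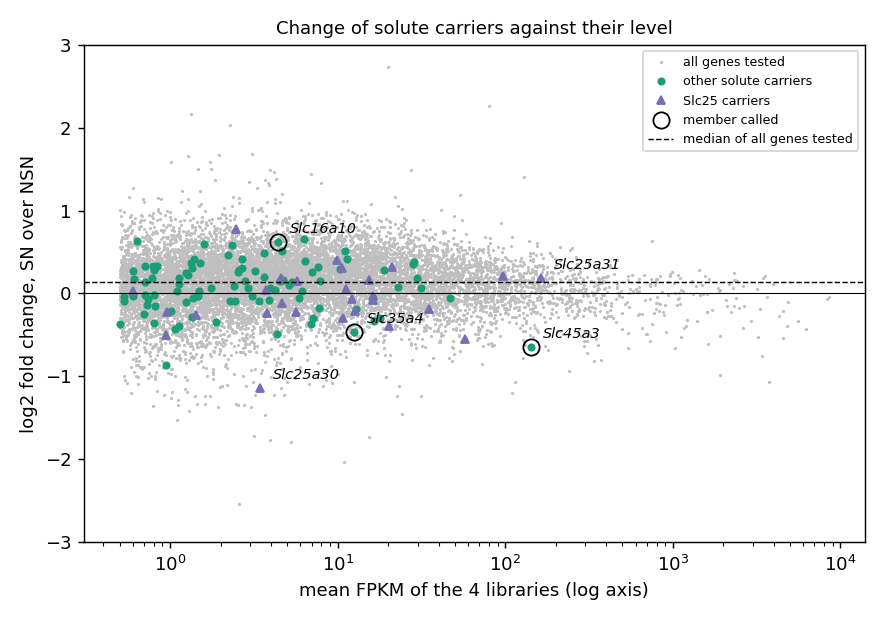
Log2 fold change, SN over NSN on the log2(FPKM + 0.5) scale, against the mean FPKM of the 4 libraries on a log axis, for all 11672 genes tested (grey), the 27 Slc25 carriers (triangles) and the 93 other solute carriers (circles). The 3 called members are ringed, and the dashed line marks the median of all genes, 0.14.

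The gene with the highest mean level over the 4 libraries was Slc25a31 (in the NSN libraries alone the mean of Slc45a3 was higher), which encodes the ADP/ATP carrier of germ cells, the protein that exports ATP from the mitochondrial matrix in exchange for ADP. It was at 150.3 and 157 FPKM in NSN and at 179 and 170.3 in SN oocytes. The SN libraries were both above the NSN libraries, and the difference did not pass the test (log2 fold change 0.18, SE 0.07, limma adjusted p = 0.15; 0.03 and 0.83 after median scaling). Slc25a5, the ADP/ATP carrier gene of proliferating cells, was at 38.9 and 35.4 FPKM in NSN and at 29.5 and 35.9 in SN oocytes. Slc25a4, that of heart and muscle, was at 15.4 and 17.5 FPKM in NSN and at 16.4 and 15.7 in SN oocytes. The groups overlapped for both genes. Slc25a31 alone thus made up 73.5% and 74.8% of the summed FPKM of the 3 genes in NSN, and 79.6% and 76.8% in SN oocytes. Slc25a5 has near-identical processed copies in the genome, and since read pairs of low mapping quality were not counted, its level is uncertain.

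The 3 ADP/ATP carriers share a run of 3 arginine and 3 methionine residues by which this protein group is recognised. It is shown because the reading frames of all 3 genes keep the run while they differ elsewhere. The 6 codons are in capitals, with 3 bases on each side, 5′ to 3′ on the coding strand of GRCm39.
Slc25a31: gttAGAAGACGTATGATGATGcag
Slc25a4: gttCGTCGTAGGATGATGATGcag
Slc25a5: gttCGCCGTCGTATGATGATGcag
In Slc25a31 (ENSMUSG00000069041.9) the stretch lies in coding exon 5 at chr3:40677158-40677181 on the plus strand, codons 248 to 253 of 320. In Slc25a4 (ENSMUSG00000031633.6) it lies in coding exon 3 at chr8:46661451-46661474 on the minus strand, and in Slc25a5 (ENSMUSG00000016319.5) in coding exon 3 at chrX:36061490-36061513 on the plus strand, codons 235 to 240 of 298 in both. The methionine codons are the same in all 3 genes, as a methionine codon must be, while the first arginine codon differs between all 3. The second arginine codon is shared by Slc25a4 and Slc25a5, and the third by Slc25a31 and Slc25a5. Over the aligned coding sequence Slc25a31 was 67.8% identical to Slc25a4 and 69.1% to Slc25a5, against 78.6% between Slc25a4 and Slc25a5.

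As a group, the Slc25 genes were expressed higher than the others, with a mean FPKM of at least 10 for 14 of 27 (51.9%) against 16 of 93 (17.2%), where 33.6% of all genes tested reached it. Their summed FPKM was 552 and 538 in NSN against 552 and 550.0 in SN oocytes, and Slc25a31, Slc25a17 and Slc25a26 held 57.1% to 59.7% of it. None of the 27 was called by limma, on either scale. Of them 10 (37.0%) had an unadjusted p under 0.05, 5 higher and 5 lower in SN, where 31.7% of all genes had one (23.8% higher and 7.86% lower). By voom on read pairs 2 were called higher and 3 lower, where 15.1% and 4.58% of all genes were. Both SN libraries lay above both NSN libraries for 7 Slc25 genes (25.9%) and below for 11 (40.7%), where 44.8% and 17.8% of all genes did. The median log2 fold change of the 27 was -0.07 on the deposited scale and -0.22 after median scaling, against 0.14 and 0.005 for all genes. No test of the list was made, and members that passed the minimum are not all Slc25 genes, since 9 more were listed below it.

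**Figure D2:**
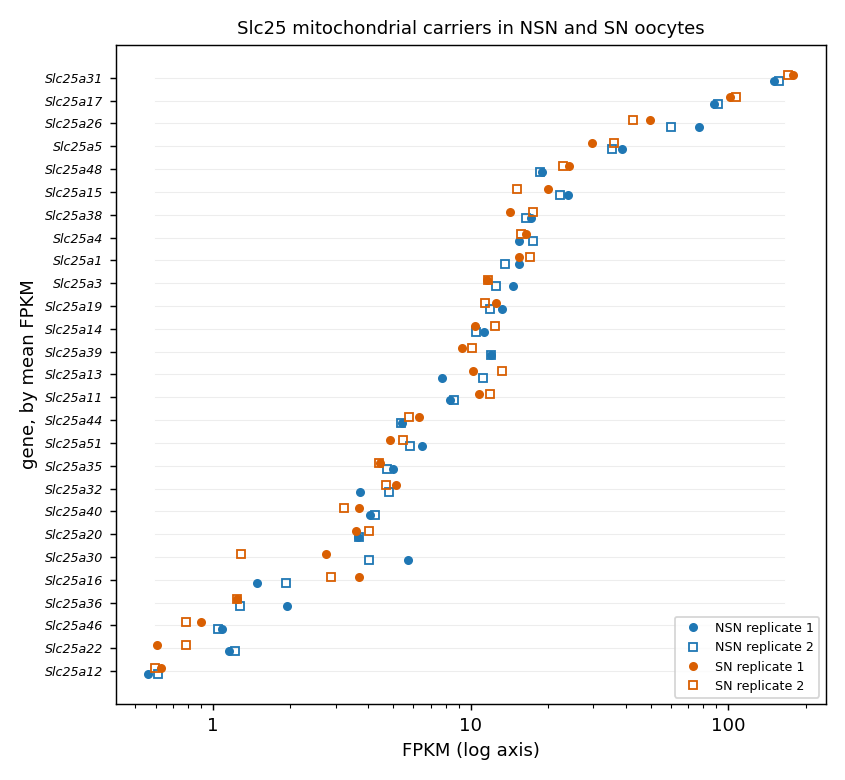
FPKM on a log axis of the 27 Slc25 genes in each of the 4 libraries, ordered by mean FPKM. Filled circles are replicate 1 and open squares replicate 2, in blue for NSN and orange for SN; Slc25a31 is at 150.3 to 179 FPKM, and Slc25a30 shows the widest spread, from 1.29 to 5.70.

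After Slc25a31 the highest Slc25 gene was Slc25a17, whose product carries coenzyme A, FAD and NAD across the peroxisomal membrane. It was at 88.1 and 91.5 FPKM in NSN and at 101 and 107 in SN oocytes, without overlap and without passing the test (log2 fold change 0.22, SE 0.08, limma adjusted p = 0.12; 0.06 and 0.64 after median scaling). Slc25a26, the gene of the mitochondrial S-adenosylmethionine carrier, ran the other way, at 76.7 and 60.2 FPKM in NSN and at 49.8 and 42.6 in SN oocytes. The NSN libraries differed from each other by more than they did for Slc25a17, and the SN libraries lay below both. The fitted log2 fold change was -0.55 with an SE of 0.14 (limma adjusted p = 0.057), with an adjusted p of 0.0068 with voom, 0.015 without NSN replicate 2 and 0.080 to 0.17 with any of the other libraries left out. Of its annotated exons, 19.6% lie within those of Lrig1, so with counting that ignores strand some of its read pairs may belong to that gene.

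Slc25a48, linked to mitochondrial choline import, was at 18.9 and 18.6 FPKM in NSN and at 24.1 and 22.8 in SN oocytes (log2 fold change 0.32, SE 0.09, limma adjusted p = 0.076). Slc25a15, the ornithine carrier gene, was at 24.0 and 22.2 FPKM in NSN and at 19.98 and 15.2 in SN oocytes (log2 fold change -0.40, SE 0.14, limma adjusted p = 0.12). Neither gene had overlapping groups. Neither passed on log2(FPKM + 0.5), while voom called both (adjusted p = 0.038 and 0.036). After median scaling voom called Slc25a15 (adjusted p = 0.014) and not Slc25a48 (0.27), and limma called neither (0.080 and 0.29). Slc25a11, the gene of the oxoglutarate and malate carrier of the malate-aspartate shuttle, was at 8.36 and 8.65 FPKM in NSN and at 10.8 and 11.9 in SN oocytes (log2 fold change 0.40, SE 0.11, limma adjusted p = 0.069). It passed where the mean had to reach 5 FPKM (limma adjusted p = 0.040). It did not pass with limma after median scaling (0.19) or with voom (0.054).

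The aspartate and glutamate carriers of the same shuttle were at unequal levels. Slc25a13 was at 7.73 and 11.2 FPKM in NSN and at 10.2 and 13.2 in SN oocytes, whereas Slc25a12 lay between 0.561 and 0.627 in the 4 libraries. Both had overlapping groups. The citrate carrier gene Slc25a1 was at 15.4 and 13.6 FPKM in NSN and at 15.5 and 17.0 in SN oocytes. The phosphate carrier gene Slc25a3, which supplies ATP synthase, was at 14.6 and 12.6 FPKM in NSN and at 11.6 and 11.7 in SN oocytes. The gene of the carnitine and acylcarnitine carrier, Slc25a20, which admits fatty acids to oxidation, lay between 3.58 and 4.05 FPKM with overlapping groups. The limma adjusted p of these 5 genes lay between 0.24 and 0.92.

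The largest fitted differences of the Slc25 genes in each direction, named after their values were seen, belonged to genes of low level. Slc25a30, a mitochondrial carrier first described in kidney, was at 5.70 and 4.03 FPKM in NSN and at 2.74 and 1.29 in SN oocytes, from 356, 259, 168 and 83 read pairs. The SN libraries were both below the NSN libraries, and within each class one library was well above the other. The fitted log2 fold change was -1.14 with an SE of 0.30 (limma adjusted p = 0.063). The adjusted p was 0.030 without NSN replicate 2, 0.040 without SN replicate 1, 0.0041 with voom, and 0.15 to 0.19 without either other library. Slc25a16, linked to coenzyme A in mitochondria, was at 1.48 and 1.92 FPKM in NSN and at 3.69 and 2.88 in SN oocytes (log2 fold change 0.78, SE 0.18, limma adjusted p = 0.051). Without NSN replicate 2 the log2 fold change was 0.93. The gene passed with voom on both scales (adjusted p = 0.0081, and 0.024 after median scaling). It did not pass with limma after median scaling (adjusted p = 0.078).

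Among the 93 other solute carriers, Slc45a3 was by far the highest. Its product is a sugar transporter family member known from the prostate. Slc45a3 (ENSMUSG00000026435.17, GRCm39 chr1:131890666-131910707, plus strand) was at 190.1 and 156 FPKM in NSN and at 114 and 106 in SN oocytes, from 11356, 9611, 6682 and 6534 read pairs. The groups did not overlap, and the gap between them was wider than the gap within either. The mean fell from 173 ± 23.9 FPKM to 110.0 ± 5.86 FPKM (SD, n = 2 each). The log2 fold change was -0.65 with an SE of 0.11 (limma adjusted p = 0.037), and -0.80 after median scaling (0.047). With each library left out in turn the log2 fold change ranged from -0.79 to -0.51. The limma adjusted p was 0.0097 without NSN replicate 2, and 0.081, 0.057 and 0.094 without NSN replicate 1, SN replicate 1 and SN replicate 2. Its exons overlap those of Gm29103 over 11.2% of their length. The share of Slc45a3 in the summed FPKM of the 93 genes was 28.2% and 23.4% in NSN, and 17.3% and 16.8% in SN oocytes. Without it, that sum was 483 and 512 in NSN and 545 and 523 in SN oocytes.

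Slc35a4 (ENSMUSG00000033272.15, chr18:36812184-36817453, plus strand) belongs to the family of Golgi nucleotide sugar transporters. It was at 13.9 and 15.2 FPKM in NSN and at 10.5 and 10.3 in SN oocytes, with no overlap. The mean fell from 14.6 ± 0.890 FPKM to 10.4 ± 0.177 FPKM (SD, n = 2 each), and the log2 fold change was -0.47 with an SE of 0.10 (limma adjusted p = 0.047). After median scaling it was -0.61 (0.047). Leaving out any library ended the call, with limma adjusted p of 0.10 and 0.077 without NSN replicates 1 and 2, and 0.12 and 0.15 without SN replicates 1 and 2. Of its exons, 59.6% lie within those of Gm58354, so its read pairs cannot be assigned with certainty.

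Slc16a10 (ENSMUSG00000019838.13, chr10:39909448-40018304, minus strand) encodes a transporter of aromatic amino acids in the monocarboxylate transporter family. It was at 3.16 and 3.53 FPKM in NSN and at 5.65 and 5.17 in SN oocytes, and the groups did not overlap. The mean rose from 3.35 ± 0.256 FPKM to 5.41 ± 0.344 FPKM (SD, n = 2 each), and the log2 fold change was 0.62 with an SE of 0.13 (limma adjusted p = 0.045). Voom called the gene on both scales (adjusted p = 0.0028, and 0.013 after median scaling). With limma the log2 fold change was 0.48 after median scaling, which ended the call (limma adjusted p = 0.074). The adjusted p was 0.033 without NSN replicate 2, and 0.14, 0.15 and 0.12 without NSN replicate 1, SN replicate 1 and SN replicate 2. No other annotated exon overlaps its own.

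**Figure D3:**
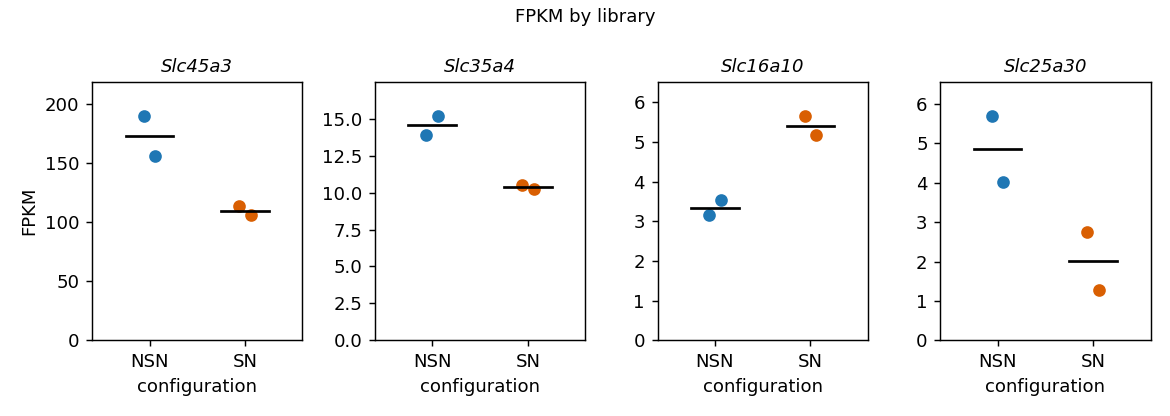
FPKM in each library of the 3 called members and of Slc25a30, with the group means as lines and each vertical axis starting at 0. Slc45a3, Slc35a4 and Slc25a30 are lower in both SN libraries than in either NSN library, and Slc16a10 is higher; Slc25a30 did not pass the test.

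The median log2 fold change of the 93 other solute carriers was 0.09 on the deposited scale and -0.04 after median scaling, and no test of the list was made. By limma 16 had an unadjusted p under 0.05 with higher and 7 with lower levels in SN, together 24.7% of the 93, against 31.7% of all genes (23.8% higher and 7.86% lower). By voom 13 were called higher and 5 lower, where 15.1% and 4.58% of all genes were. Both SN libraries lay above both NSN libraries for 38 genes (40.9%) and below for 20 (21.5%), shares close to the 44.8% and 17.8% of all genes, and the groups overlapped for 35.

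Of the 5 highest genes after Slc45a3, limma called none, while Slc6a15 and Slc15a5 had an unadjusted p under 0.05 and were called by voom. After median scaling voom called neither of the 2 (adjusted p = 0.13 and 0.19), nor did limma (0.18 and 0.22). Slc3a2, the heavy chain that brings several amino acid transporters to the cell surface, was at 46.8 and 49.2 FPKM in NSN and at 48.6 and 43.8 in SN oocytes (log2 fold change -0.06, SE 0.09, limma adjusted p = 0.70). Slc10a6, which carries sulfated steroids, was at 28.3 and 32.9 FPKM in NSN and at 32.3 and 31.5 in SN oocytes (0.06, SE 0.10, limma adjusted p = 0.70). The groups overlapped for both. Slc23a2, the vitamin C transporter gene, was at 26.5 and 28.9 FPKM in NSN and at 32.9 and 30.2 in SN oocytes (0.18, SE 0.10, limma adjusted p = 0.24). Slc6a15, a transporter of branched-chain amino acids and proline, was at 22.9 and 26.7 FPKM in NSN and at 33.7 and 31.2 in SN oocytes (0.38, SE 0.11, limma adjusted p = 0.073). Slc15a5, of the peptide transporter family, was at 22.6 and 26.7 FPKM in NSN and at 30.9 and 32.4 in SN oocytes (0.36, SE 0.11, limma adjusted p = 0.082). For these 3 genes both SN libraries were the higher, and none of them passed the test.

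**Figure D4:**
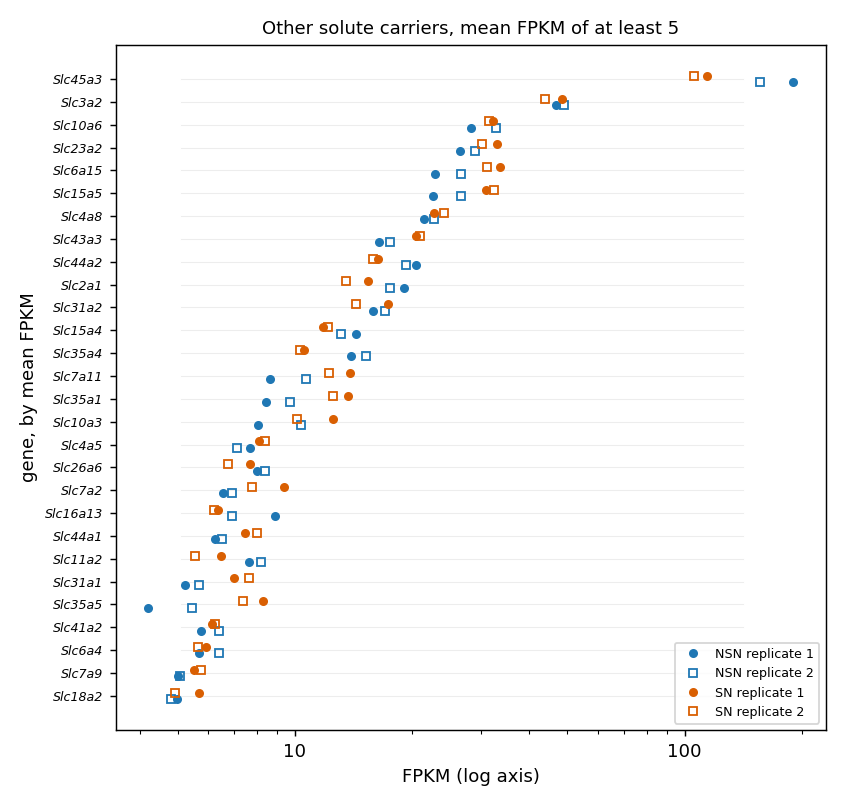
FPKM on a log axis of the solute carriers outside Slc25 with a mean of at least 5, by library, with symbols as for the Slc25 genes. Slc45a3 stands apart from all others at 106 to 190.1 FPKM, followed by Slc3a2 at 43.8 to 49.2.

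Grouped by the substrate that their family is known for, the 93 genes fell into 7 classes. The shares to read their counts against are those of all genes tested, of which limma called 7.93%, 31.7% had an unadjusted p under 0.05 and voom called 19.7%. The 21 amino acid and peptide carriers had a median log2 fold change of 0.16. None of them was called, while 7 had an unadjusted p under 0.05 by limma and voom called 4. Both counts include Slc1a1, which passed the minimum only through its NSN libraries. The called aromatic amino acid transporter gene Slc16a10 is not among the 21, since it is counted with its monocarboxylate family. The 26 carriers of inorganic ions and of acid and base had a median of 0.10, with none called, 5 at an unadjusted p under 0.05 and 5 called by voom. The 15 carriers of lipids, organic ions and other substrates had a median of -0.02, with none called, 1 at an unadjusted p under 0.05 and 1 called by voom. The 12 carriers of metals, vitamins and cofactors had a median of 0.02, with none called, 3 at an unadjusted p under 0.05 and 2 called by voom. The 9 sugar and polyol carriers, with Slc45a3 called, had a median of -0.08, with 2 at an unadjusted p under 0.05 and 1 called by voom. The 6 nucleoside and nucleotide sugar carriers, with Slc35a4 called, had a median of 0.11, with 3 at an unadjusted p under 0.05 and 3 called by voom. The 4 members of the monocarboxylate family, with Slc16a10 called, had a median of 0.17, with 2 at an unadjusted p under 0.05 and 2 called by voom. After median scaling these 7 medians lay between -0.22 (sugars and polyols) and 0.06 (monocarboxylate family).

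**Figure D5:**
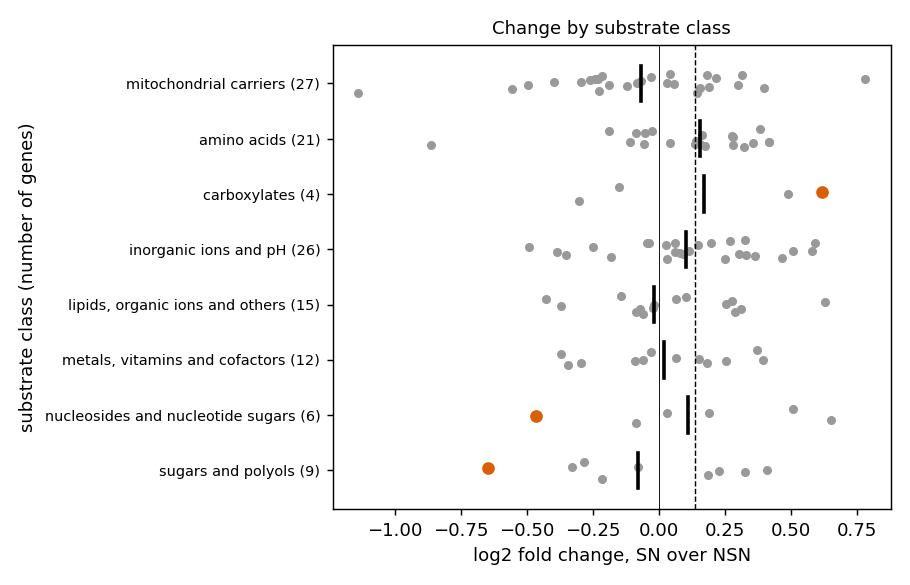
Log2 fold change, SN over NSN, of each member by substrate class, with the number of genes in brackets; grey points were not called, larger orange points were, and a thick bar marks the class median. The dashed line is the median of all genes tested, 0.14, and the class medians run from -0.08 (sugars and polyols) to 0.17 (carboxylates). Classes go by family, so the aromatic amino acid transporter gene Slc16a10 is shown with the carboxylates.

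The nucleotide sugar family held members that ran in both directions. Against the fall of Slc35a4, the CMP-sialic acid transporter gene Slc35a1 was at 8.42 and 9.75 FPKM in NSN and at 13.7 and 12.5 in SN oocytes (log2 fold change 0.51, SE 0.12, limma adjusted p = 0.052). Its relative Slc35a5 was at 4.20 and 5.44 FPKM in NSN and at 8.27 and 7.37 in SN oocytes (0.65, SE 0.15, limma adjusted p = 0.052). Neither gene had overlapping groups, and both missed the threshold narrowly on the deposited scale. With voom the adjusted p was 0.016 for Slc35a1 and 0.0049 for Slc35a5. After median scaling both rises were smaller, with log2 fold changes of 0.36 and 0.51 (limma adjusted p = 0.097 and 0.082). Voom after median scaling called Slc35a5 (adjusted p = 0.019) and not Slc35a1 (0.071). When 1 library was omitted, the log2 fold change stayed within 0.41 to 0.61 for Slc35a1 and 0.48 to 0.82 for Slc35a5. The sulfate transporter gene Slc26a2 was at 5.16 and 5.17 FPKM in NSN and at 3.42 and 3.63 in SN oocytes (log2 fold change -0.49, SE 0.13, limma adjusted p = 0.059, and 0.0058 with voom). These 3 genes were named after their values were seen. By contrast Slc35b1, the gene of the ATP carrier of the endoplasmic reticulum, which the symbol rule leaves out, was at 13.2 and 12.4 FPKM in NSN and at 12.5 and 12.2 in SN oocytes.

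A list of 33 transporters known from mitochondria, oocytes or preimplantation embryos was followed whatever its values. Of these, 20 were members, 7 were listed under the minimum, Slc2a3, Slc16a3, Slc38a2, Slc38a3 and Slc1a5 are not among the listed genes and were not analysed here, and Slc35b1 is outside the symbol rule. None of the 20 was called by limma (7.93% of all genes were), while 5 had an unadjusted p under 0.05 (31.7% of all genes) and voom called 3 (19.7% of all genes). Both the 5 and the 3 include Slc1a1, which passed the minimum only through its NSN libraries and so is no support for a fall. The 7 under the minimum were Slc2a8, Slc16a7, Slc38a1, Slc7a6, Slc1a4, Slc4a2 and Slc29a1, with means of 0.106 to 0.371 FPKM.

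Of the fuel carriers on this list, the glucose transporter gene Slc2a1 was at 19.1 and 17.5 FPKM in NSN and at 15.4 and 13.5 in SN oocytes (log2 fold change -0.33, SE 0.11, limma adjusted p = 0.10). The gene of the lactate and pyruvate transporter, Slc16a1, was at 2.80 and 3.09 FPKM in NSN and at 4.49 and 4.19 in SN oocytes (0.49, SE 0.13, limma adjusted p = 0.068). Neither had overlapping groups. Slc16a1 passed with voom (adjusted p = 0.017), and Slc2a1 with voom after median scaling (0.015). After median scaling Slc16a1 did not pass with voom (adjusted p = 0.071) or with limma (0.13), and Slc2a1 did not with limma (0.068). Of the acid and base carriers, the sodium bicarbonate cotransporter gene Slc4a7 was at 1.69 and 1.86 FPKM in NSN and at 3.04 and 2.78 in SN oocytes (0.58, SE 0.15, limma adjusted p = 0.059). The SN libraries were both above the NSN libraries. The gene passed with voom (adjusted p = 0.0038) and where every library had to reach 0.5 FPKM (limma adjusted p = 0.048). After median scaling it passed with voom (adjusted p = 0.016) and not with limma (0.10).

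Of the amino acid carriers on the list, the glutamate and cysteine transporter gene Slc1a1 had 1 library far above the rest, at 2.03 FPKM in NSN replicate 1 against 0.779 in NSN replicate 2 and 0.493 and 0.483 in SN oocytes. The fitted log2 fold change was -0.86 with an SE of 0.32 (limma adjusted p = 0.12), and -0.37 without NSN replicate 1. Without NSN replicate 2 it was -1.35, and with voom -1.34 (adjusted p = 0.042). Slc1a1 passed the minimum of 0.5 FPKM only through its NSN libraries. That choice favours a fall in SN, so these values are a description and no support for one. Slc6a9, the glycine transporter gene by which early embryos regulate their volume, was at 1.37 and 1.23 FPKM in NSN and at 1.53 and 0.876 in SN oocytes. The taurine transporter gene Slc6a6 was at 4.06 and 4.46 FPKM in NSN and at 5.22 and 4.40 in SN oocytes. Slc7a5, the light chain that pairs with Slc3a2 in the large neutral amino acid transporter, was only at 0.604 and 0.460 FPKM in NSN and at 0.433 and 0.948 in SN oocytes. The groups overlapped for these 3 genes, with limma adjusted p of 0.48 to 0.77.

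Of the vitamin and cofactor carriers on the list, the choline transporter gene Slc44a1 was at 6.25 and 6.51 FPKM in NSN and at 7.43 and 7.98 in SN oocytes. The reduced folate carrier gene Slc19a1 was at 2.48 and 2.23 FPKM in NSN and at 2.26 and 2.10 in SN oocytes. The carnitine transporter gene Slc22a5, which feeds the mitochondrial route of Slc25a20, was at 2.42 and 2.64 FPKM in NSN and at 2.16 and 2.56 in SN oocytes. Only Slc44a1 had groups that did not overlap, and none of the 3 passed (limma adjusted p of 0.18 to 0.73).

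Proteins that work with the carriers were followed as 15 partner genes, 14 of which were tested. They comprised the pores of the outer mitochondrial membrane, the pyruvate carrier, the import machinery that inserts Slc25 proteins, the accessory chains of the monocarboxylate transporters and the subunits of the sodium pump. By limma 1 of the 14 was called (7.14%, against 7.93% of all genes tested). An unadjusted p under 0.05 was found for 4 (28.6%, against 31.7%), and voom called 2, where 19.7% of all genes were called. The gene called by limma was Emb, whose product embigin is an accessory chain of the monocarboxylate transporters encoded by Slc16 genes. It was at 1.47 and 1.81 FPKM in NSN and at 2.77 and 3.31 in SN oocytes, without overlap. The mean rose from 1.64 ± 0.241 FPKM to 3.04 ± 0.383 FPKM (SD, n = 2 each). The log2 fold change was 0.72 with an SE of 0.17 (limma adjusted p = 0.049). Voom called the gene on both scales (adjusted p = 0.011, and 0.032 after median scaling). With limma it did not pass after median scaling (limma adjusted p = 0.079). The adjusted p was 0.034 without NSN replicate 2 and 0.17, 0.099 and 0.18 without NSN replicate 1, SN replicate 1 and SN replicate 2. Bsg, which encodes the other accessory chain, basigin, was not called, with a mean of 53.7 ± 2.66 FPKM against 49.8 ± 3.98 FPKM in SN oocytes (SD, n = 2 each).

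At the edge of the set, the members just above the minimum were Slc22a14, Slc26a10 and Slc29a2, with means of 0.501, 0.530 and 0.533 FPKM. The genes just below it were Slc37a1, Slc34a1 and Slc22a28, with means of 0.494, 0.490 and 0.482 FPKM. In 12 members at least 1 library was under 0.5 FPKM, and 3 had a group mean under it, Slc1a1 and Slc22a14 in SN and Slc47a1 in NSN oocytes. More than 25% of the exon length was shared with other annotated genes in 11 members, and none of it in 55.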

How the data were processed

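The authors trimmed reads with Trim Galore 0.6.10 and mapped them with HISAT2 to the GRCm39 build. Per gene of GENCODE vM34, they counted exonic read pairs with featureCounts (primary alignments above a minimum mapping quality, both strands together), and deposited FPKM made with their own script. They ran DESeq2 on counts that were not used here. The labels give 3 samples per group, of which 2 per group are analysed here.

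Groups came from the sample titles. Genes whose mean reached 0.5 FPKM were taken as log2(FPKM + 0.5) and compared with limma 3.58.1 (lmFit, then eBayes with a variance trend) in R 4.3.3, and p-values are two-sided. limma was tested on simulated data. Whole read pairs were recovered for 99.9% of the genes, to within 0.0001 of a whole number, and tested with voom. Positions and overlaps are from GENCODE vM39 on the same build, a later release than that of the authors, and all 120 symbols matched once. Tables were made with Python 3.11.15, pandas 2.3.3 and numpy 2.4.6, and plots with matplotlib 3.10.9.

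The members, the gene lists and the substrate classes, which go by family, were chosen with earlier results of these data known. Named genes are, in each class, up to 8 rises and 8 falls among the calls without overlap, the 6 highest by mean, the list of 33, the 3 genes on either side of the minimum, and called partners. Exceptions are stated where they occur. 1 gene of the list of 33 is not reported here on its own. Alternatives were other pseudocounts, filters, scalings, variance models, a replicate block, corrections for length and GC content (loess span 0.3), voom, and leaving out each library in turn.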

Additional observations from a re-analysis of the deposited data

How the results depend on the processing

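With 2 libraries per class, calls lie close to the threshold, where the smallest adjusted p of any gene was 0.036. The every-library filter of 0.5 FPKM left 27 Slc25 genes and 81 others, and a mean of at least 5 left 17 and 28. The number of Slc25 genes called higher in SN was 0, and it became 1 with a pseudocount of 1, 1 where every library had to reach 0.5 FPKM, 2 with a mean of at least 5, 2 with voom and 1 with voom after median scaling. The number called lower was 0, and it became 2, 1, 3 and 5 with the last 4 of these settings, and 2 with the replicate block. For the other solute carriers, 1 called higher became 4 with the every-library filter, 4 with the mean of at least 5, 13 with voom and 4 with voom after median scaling. It became 0 with the replicate block, all listed genes, quantile normalization, median scaling, no variance trend, and the length and GC corrections. The 2 called lower became 1 with a pseudocount of 0.1 and with the replicate block, 5 with voom, 8 with voom after median scaling, and 0 with all listed genes, no variance trend, and the length and GC corrections. With all listed genes, or without the variance trend, no gene of any kind was called by limma, while 4092 and 3449 had an unadjusted p under 0.05. The cause of these changes was not tested. Across genes tested, the log2 fold change had r = -0.21 with the GC content of the exons, and -0.27 across the 93 members outside Slc25.

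Leaving out 1 library, where limma assumes that the lone library varies like the others, gave 0 to 1 Slc25 genes higher and 0 to 2 lower, and 0 to 7 other carriers higher and 0 to 2 lower. The upper values arose without NSN replicate 2, where 1368 genes of all were called higher, and without NSN replicate 1 no gene was called (2278 had an unadjusted p under 0.05). The median log2 fold change of the Slc25 genes, -0.07, became -0.029 with a mean of at least 5, -0.22 with median scaling, -0.25 with quantile normalization, -0.15 and -0.11 with the length and GC corrections, and -0.22 with voom after median scaling, and was -0.11 to -0.026 with a library left out. That of the others, 0.09, became -0.039, -0.048, -0.031, 0.010 and -0.046 with the last 5 of these settings, and was 0.083 to 0.14 with a library left out. Of 26 genes named with a fold change, the direction turned for Slc25a31 with the GC correction (-0.055), Slc23a2 with the length correction (-0.022), and Slc10a6 with median scaling (-0.088), quantile normalization (-0.052) and voom after median scaling (-0.091). With a library left out it turned for Slc10a6 (-0.044 without NSN replicate 1, in a range up to 0.17) and Slc3a2 (0.018 without SN replicate 2, in a range down to -0.13).

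The replicate numbers of the labels are not stated to pair the libraries. The differences between replicates 1 and 2 of the 2 classes had a correlation of -0.07 across 11672 genes. A correlation across genes cannot show whether libraries of one number were paired, since a shared effect may fall on few genes. With the number as a replicate block, 422 genes were called in place of 926, and the Slc25 genes called were Slc25a26 (limma adjusted p = 0.0498) and Slc25a30 (0.049).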

Other observations

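The symbol rule leaves out 33 listed genes with solute carrier symbols of other forms, such as the nucleotide sugar families Slc35b to Slc35g and the organic anion carriers Slco, of which 22 were tested. They were examined after the results above were known. By limma 1 of the 22 was called (4.55%, against 7.93% of all genes tested), Slco1a5, an organic anion carrier. It was at 0.648 and 0.924 FPKM in NSN and at 2.03 and 1.69 in SN oocytes, without overlap. The fitted log2 fold change was 0.88 with an SE of 0.19 (limma adjusted p = 0.045). Voom called the gene on both scales (adjusted p = 0.0090, and 0.022 after median scaling). With limma it did not pass after median scaling (limma adjusted p = 0.067). The limma adjusted p was 0.028 without NSN replicate 2, and 0.15, 0.13 and 0.10 without NSN replicate 1, SN replicate 1 and SN replicate 2. Of the 22, 3 had an unadjusted p under 0.05 with higher and 1 with lower levels in SN, where 23.8% and 7.86% of all genes did, and voom called 4, where 19.7% of all genes were called. The highest of them, Slc9b1, a sodium proton exchanger family gene known from the testis, was at 18.8 and 22.6 FPKM in NSN and at 27.2 and 34.8 in SN oocytes (limma adjusted p = 0.063). Slc35c2, a nucleotide sugar transporter family gene, was at 14.3 and 12.9 FPKM in NSN and at 8.53 and 10.2 in SN oocytes (limma adjusted p = 0.058). Neither gene had overlapping groups.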
